A study of Danio rerio with 11 samples.

Results

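The neuronal membrane glycoprotein gene gpm6b is represented by 2 gene IDs, ENSDARG00000001676 and ENSDARG00000005739, out of 39714 gene IDs with measured values. They were chosen by their FPKM in these same libraries, as IDs of 1 symbol whose means went in opposite directions between the injury segment and the distal segments. That contrast is therefore described for both IDs and not tested. The libraries hold RNA of intraspinal serotonergic neurons (ISNs), sorted by fluorescence from Tg(tph2:GFP) zebrafish, in which the tph2 promoter drives green fluorescent protein in serotonin-producing cells. There were 11 libraries, 6 of the segment at the injury site and 5 of distal segments. All fish had a spinal cord injury, were 6 to 8 weeks past it and carried the same transgene, so no uninjured cord is among the groups. Fish were juvenile or adult, of both sexes, and the same animals gave injury and distal tissue. How many fish went into a library is not given in the sources used here, and the labels do not say that libraries came from separate fish, so p-values measure only the spread between these libraries, which may be technical.

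GPM6B (M6b) and GPM6A (M6a) are related membrane-spanning glycoproteins, known together as the M6 proteins. In mammals both M6 proteins are found in neurons, where M6a lies at growth cones and neurite tips and promotes filopodia, and GPM6B is also made by oligodendrocytes and astroglia. Mammalian GPM6B binds the serotonin transporter and lowers its amount at the cell surface. Zebrafish hold a duplicated set of these genes, named gpm6aa, gpm6ab, gpm6ba and gpm6bb. The reference gives the symbol GPM6B to both IDs, and no source used here pairs either ID with the name gpm6ba or gpm6bb. The authors had already named gpm6bb, with no gene ID, among genes expressed by injury ISNs compared with distal ones. Which ID they meant is not stated. In mean FPKM, ENSDARG00000001676 was higher at the injury (8.04 against 0.0221). ENSDARG00000005739 was lower there (4.53 against 30.4).

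Levels are in FPKM, the fragments of a gene scaled by its length and by the size of the library. Between 14215980 and 19709661 fragments lay behind the values of a library, but the number of genes with at least 1 FPKM ran from 4530 in injury replicate 3 and 5443 in injury replicate 2 to 16019 in injury replicate 5. Markers of the labelled cell type were present: of the 10 IDs of the serotonergic list, 9 were above 0 in every library, and their summed FPKM lay between 4603 and 12249. The fragments behind each FPKM were recovered from the steps in which the values of a library rise. The gene lengths that give whole fragments were 1519 bases for ENSDARG00000001676 and 2308 bases for ENSDARG00000005739. Values of 0 stand for 0 fragments, and 3 fragments, the limit that a count of 0 allows, correspond to between 0.1002 and 0.139 FPKM for ENSDARG00000001676. Intervals and limits from fragments cover counting error only, since amplified copies are not independent molecules.

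ENSDARG00000001676 was present in part of the injury libraries and nearly absent from the distal ones. Across injury replicates 1 to 6 the FPKM was 10.4, 26.7, 0, 0, 8.89 and 2.21. In distal replicates 1 to 4 it was listed at 0, and distal replicate 5 had 0.111 FPKM. The 4 injury libraries above 0 all lay above every distal library, and injury replicates 3 and 4 could not be told apart from the distal segments. In fragments, the injury libraries held 296, 800, 0, 0, 192 and 57, and distal replicate 5 held 3. Injury replicate 2 alone gave 59.5% of the 1345 injury fragments.

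The level at the injury was moderate where it was found. In injury replicates 1 and 5, ENSDARG00000001676 exceeded 69.9% and 69.6% of the genes detected in the same library, and in injury replicate 2 it exceeded 62.2%. In injury replicate 6 it exceeded 40.3%. The difference between the segments was 2.19 ± 0.93 (limma SE, n = 6 and 5) on the log2(FPKM + 1) scale, which understates changes of low genes. That SE draws on the spread of all genes fitted, not of this ID alone, and was 0.82 with no trend in the variance prior. The difference was 1.67 without injury replicate 2 and 2.63 without injury replicate 3 or 4. Relative to all fragments behind the values of the libraries, its fragments were 381 times higher at the injury when libraries were pooled. The 95% interval was 130 to 1848 (exact, counting error only), and the ratio rests on the 3 distal fragments. The ratio of mean FPKM was 364, and 195 without injury replicate 2. With a pseudocount of 0.1 or 0.01 the difference was 4.09 or 5.78.

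ENSDARG00000001676 is set here beside the number of genes of at least 1 FPKM. Its highest value, in injury replicate 2, came from the library with the second lowest number of genes, 5443. Injury replicates 3 and 4, both at 0, had 4530 and 8808 genes. Injury replicate 1 and distal replicate 5 had nearly the same number, 14289 and 14208 genes, and differed between 10.4 and 0.111 FPKM. The other 4 distal libraries, all at 0, had between 8448 and 11600 genes. The part of the number of genes in these values was not tested between the segments.

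**Figure D1:**
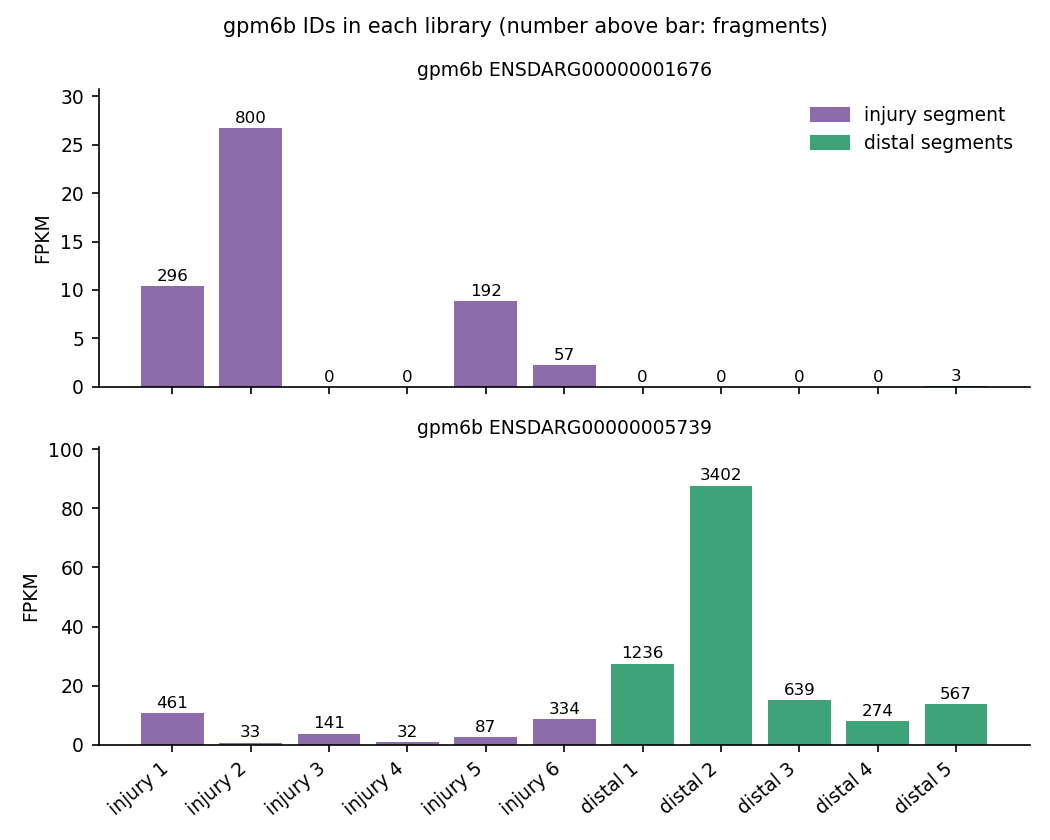
FPKM of both gpm6b IDs in each of the 11 libraries, with the number of fragments above each bar; purple bars are the injury segment and green bars the distal segments. ENSDARG00000001676 reaches 26.7 FPKM at the injury and at most 0.111 FPKM in the distal segments, and ENSDARG00000005739 reaches 10.7 FPKM at the injury and 87.7 FPKM in the distal segments.

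ENSDARG00000005739 was above 0 in all 11 libraries and lower at the injury. Across injury replicates 1 to 6 its FPKM was 10.7, 0.725, 3.74, 0.817, 2.65 and 8.54. Across distal replicates 1 to 5 it was 27.5, 87.7, 15.05, 8.05 and 13.8. The groups overlapped only through distal replicate 4, which lay below injury replicates 1 and 6, and the remaining 4 injury libraries lay below every distal library. The lowest values rest on 33 fragments in injury replicate 2 and 32 in injury replicate 4, against 274 to 3402 in the distal libraries. Injury replicates 2, 3 and 4 had 5443, 4530 and 8808 genes of at least 1 FPKM. Injury replicates 1, 5 and 6 had 14289, 16019 and 15362, and distal replicate 2, with the highest value, had 8448. How far the number of genes enters this difference between the segments was not tested.

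The mean of ENSDARG00000005739 was 4.53 ± 4.16 FPKM at the injury (SD, n = 6) and 30.4 ± 32.8 FPKM in the distal segments (SD, n = 5), 6.71 times higher in the distal segments. Distal replicate 2 held 55.6% of the distal fragments. Without it the distal mean was 16.1 ± 8.17 FPKM and the ratio 3.55. On the log2(FPKM + 1) scale the difference was -2.38 ± 0.92 (limma SE, as above), between -2.70 and -1.88 when any 1 library was left out. In the distal libraries this ID exceeded between 46.8% and 90.5% of the genes detected, against 19.7% to 70.5% at the injury.

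For the size of these differences among all genes, 24178 IDs whose mean reached 0.1 FPKM were compared. Of them, 0.625% were higher at the injury by 2 or more on the log2(FPKM + 1) scale, and 1.97% were lower by 2 or more. In the limma fit over the same genes, 0.0% had an adjusted p under 0.05, 0.658% were higher at an unadjusted p under 0.05 and 2.03% were lower. The share of higher genes among these, 24.5%, depended on single libraries, with 50.5% without injury replicate 2, 52.2% without injury replicate 3 and 15% without distal replicate 2. Since both IDs were chosen for their difference, their place among these shares is a description. In 0.0662% of the genes every injury library lay above every distal library, and in 0.186% below; neither gpm6b ID belonged to these.

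The opposite direction, for which the gpm6b IDs were chosen, was set beside other symbols with 2 IDs as a description. Among 1077 symbols with exactly 2 tested IDs, 485, or 45.0%, had IDs that went in opposite directions. A difference of 2 or more for both IDs, a size chosen after the values were seen, was found for 2 of the 1077 symbols, or 0.186%. They were GPM6B and SLC6A6, the taurine transporter, whose ENSDARG00000098438 was higher at the injury by 2.08 and whose ENSDARG00000012534 was lower, with a difference of -2.05 on the log2(FPKM + 1) scale. For the former the mean SLC6A6 level was 38.7 FPKM at the injury against 13.4 FPKM distally, and for the latter it was 5.02 FPKM against 19.04 FPKM. For gpm6b the size depended on the scaling, with differences of 1.82 and -1.83 after quantile normalization, and on single libraries, with 1.67 for ENSDARG00000001676 without injury replicate 2 and -1.88 for ENSDARG00000005739 without distal replicate 2. IDs that share a symbol may be paralogs of different age, and similar sequences can exchange reads, so the shares describe this table only.

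**Figure D2:**
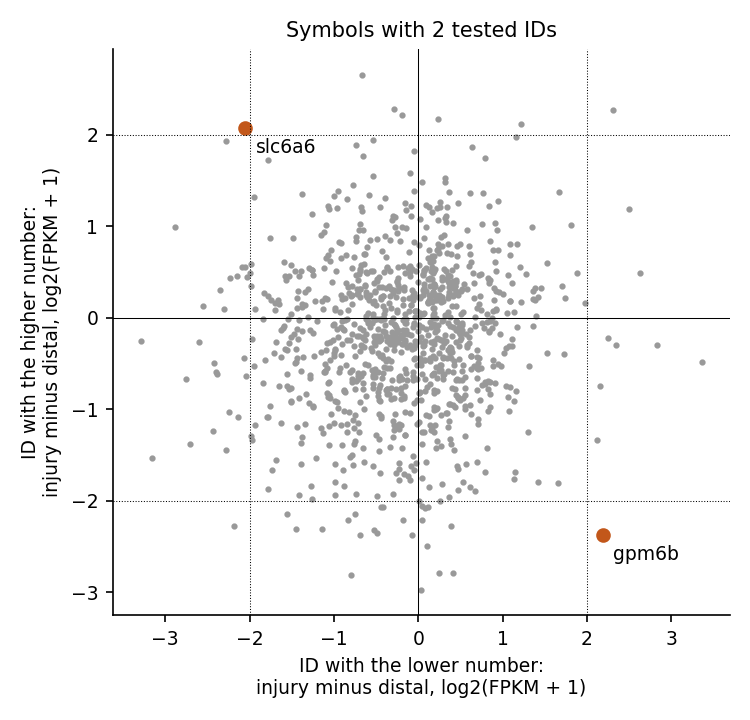
Injury minus distal difference in log2(FPKM + 1) for the 1077 symbols with exactly 2 tested IDs; each point is a symbol, with the ID of lower number on the x axis and the ID of higher number on the y axis, and dotted lines mark a difference of 2 either way. Only gpm6b (2.19 and -2.38) and slc6a6 (-2.05 and 2.08) lie beyond the lines in opposite directions, gpm6b not after quantile normalization (1.82 and -1.83). The gpm6b IDs were chosen for opposite directions, and the lines were set after the values were seen.

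The sum of both IDs, which were chosen for opposite directions, was lower in mean at the injury. Summed FPKM for injury replicates 1 to 6 was 21.1, 27.4, 3.74, 0.817, 11.5 and 10.8. For distal replicates 1 to 5 it was 27.5, 87.7, 15.05, 8.05 and 13.9. The groups overlapped: 2 injury libraries lay below every distal library, and 2 lay above the distal median of 15.05 FPKM. The mean was 12.6 ± 10.2 FPKM at the injury (SD, n = 6) and 30.4 ± 32.8 FPKM in the distal segments (SD, n = 5). On the log2(FPKM + 1) scale the sum differed by -1.21, and by -0.71 without distal replicate 2 or -0.73 without injury replicate 4.

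The share of the sum that came from ENSDARG00000001676 is above 0 only where that ID was found. Since the IDs were chosen for opposite directions, the share is a description. For injury replicates 1 to 6 this share was 49.4%, 97.4%, 0%, 0%, 77.0% and 20.6%. In the distal segments it was 0.798% in replicate 5 and 0% in the others. ENSDARG00000001676 thus outweighed ENSDARG00000005739 in 2 of the 6 injury libraries, and in replicate 1 they were nearly level, with a ratio of 0.976. The ratio reached 36.8 in injury replicate 2, and replicates 5 and 6 had 3.35 and 0.259. It was 0.00804 in distal replicate 5.

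The shares can also be given in fragments, with intervals for counting error only. As a share of fragments, which is not corrected for the length of the 2 genes, ENSDARG00000001676 took 39.1% in injury replicate 1 (95% exact Clopper-Pearson interval 35.6% to 42.7%) and 96.0% in replicate 2 (94.5% to 97.3%). The share was 68.8% for replicate 5 (63.0% to 74.2%) and 14.6% for replicate 6 (11.2% to 18.5%). The intervals of these 4 libraries do not overlap. For the libraries at 0, the upper bound was 10.9% in injury replicate 4, 2.58% in injury replicate 3 and at most 1.34% in distal replicates 1 to 4.

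**Figure D3:**
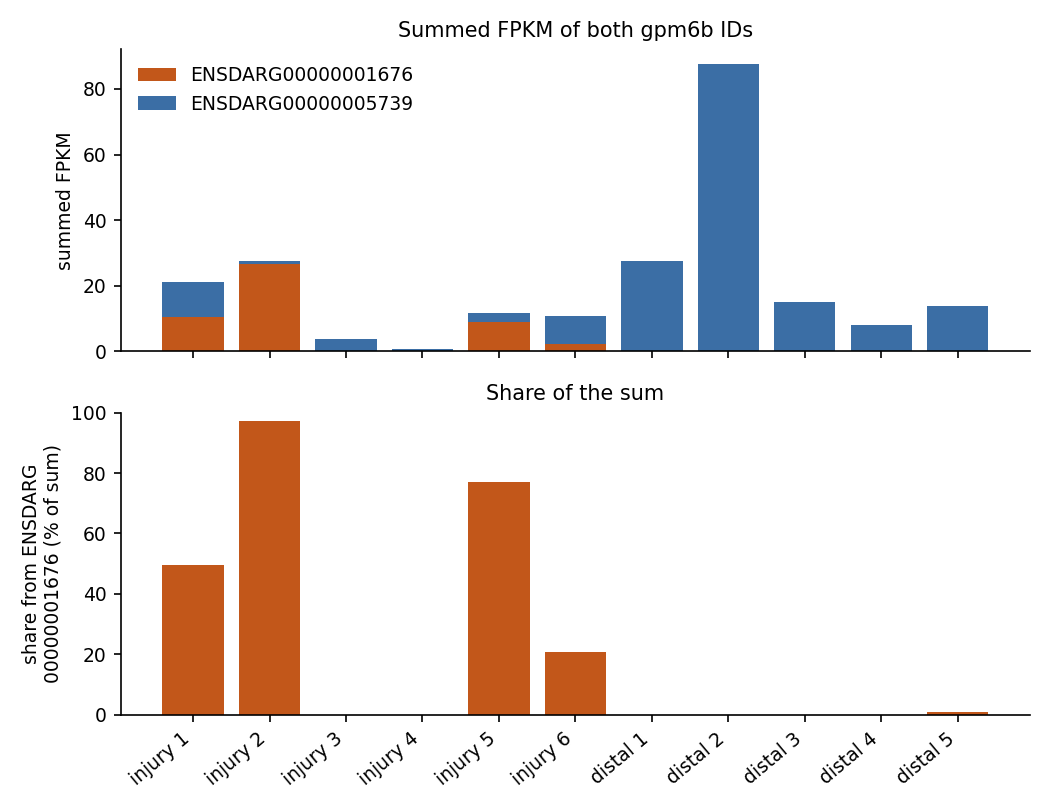
Summed FPKM of both gpm6b IDs in each library, stacked by ID (top), and the percent of that sum from ENSDARG00000001676 (bottom). The share reaches 97.4% in injury replicate 2 and does not exceed 0.798% in the distal segments, while the summed FPKM of the segments overlaps.

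Within the 6 injury libraries, where the contrast that chose the IDs does not enter, the levels of the IDs were compared with each other and with the number of genes of at least 1 FPKM, on the log2(FPKM + 1) scale. No relation between the IDs was detectable, with Pearson's r 0.0051 (exact permutation p 0.997) and Spearman's rho -0.087 (exact permutation p 0.861). Leaving out injury replicates 3 and 4, the farthest from the median of ENSDARG00000001676, gave r -0.72. ENSDARG00000001676 and the number of genes had r 0.24 (exact permutation p 0.594) and rho 0.20 (exact permutation p 0.70), with r 0.82 without injury replicates 2 and 3, the farthest from the median number of genes. ENSDARG00000005739 and the number of genes had r 0.59 (exact permutation p 0.236) and rho 0.31 (exact permutation p 0.564), with r 0.68 without the same replicates 2 and 3. Benjamini-Hochberg values over these 3 relations were 0.997, 0.892 and 0.708 for r and 0.861 for each rho. All tests were two-sided. With 6 libraries neither a weak nor a moderate relation would be detectable, since r 0.59 had an exact permutation p of 0.236.

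The 2 GPM6A IDs are the closest relatives described. Both GPM6A IDs had a higher FPKM than either gpm6b ID in every library. In distal replicate 2, ENSDARG00000005739 had 87.7 FPKM and GPM6A ENSDARG00000055455 had 182 FPKM. Injury libraries ranged from 126 to 345 FPKM for ENSDARG00000004621 and distal libraries from 93.6 to 430. For ENSDARG00000055455 the ranges were 78.7 to 143 FPKM and 85.2 to 236 FPKM. All groups overlapped, and neither GPM6A ID passed the test, with differences of 0.38 ± 0.56 (SE, limma adjusted p 0.864) and -0.39 ± 0.57 (SE, limma adjusted p 0.863) on the log2(FPKM + 1) scale. Of these 2 IDs, 0 had a limma unadjusted p under 0.05, beside 2.68% of all genes tested. The summed FPKM of the 4 M6 IDs was 359 ± 103 at the injury (SD, n = 6) and 387 ± 193 in the distal segments (SD, n = 5). The gpm6b pair took 0.397% to 6.67% of it at the injury and 2.14% to 12.5% in the distal segments.

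**Figure D4:**
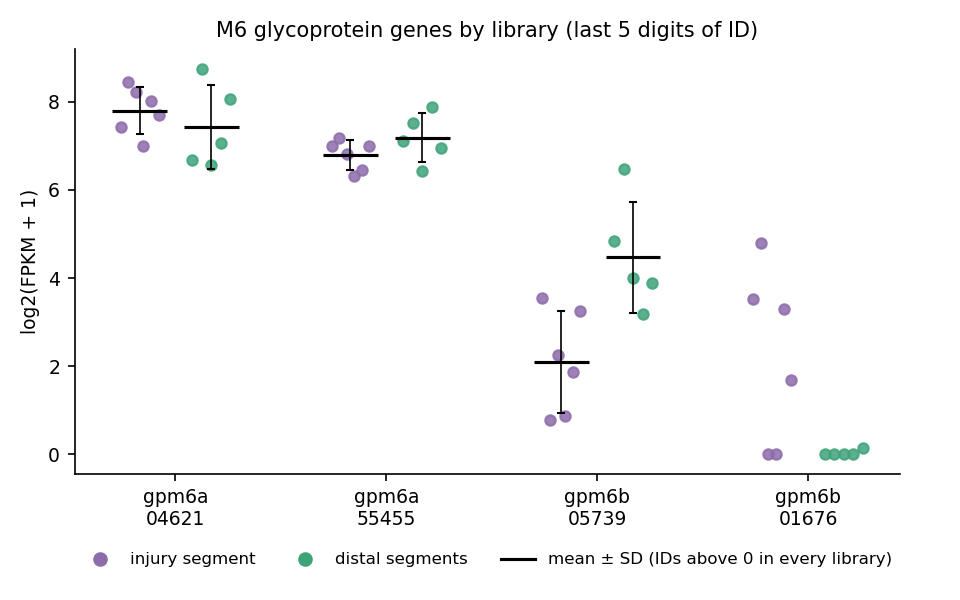
Level of the 4 M6 IDs in log2(FPKM + 1), one point per library, with the mean and SD for IDs above 0 in every library. The GPM6A IDs lie between 78.7 and 430 FPKM in both segments, and ENSDARG00000005739 reaches 10.7 FPKM at the injury and 87.7 FPKM distally.

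Oligodendrocytes make GPM6B in mammals, so a list of their markers is given beside ENSDARG00000005739. Of its 10 IDs, 9 were above 0 in some library, olig1 was at 0 in all, and only cnp was above 0 in every library. Summed FPKM of the list for injury replicates 1 to 6 was 65.5, 88.7, 8.12, 76.3, 122 and 622. For distal replicates 1 to 5 the sums were 641, 606, 462, 266 and 204, so among injury libraries replicate 6 alone exceeded the lowest distal sum. That order rests on mbpa, since without it, in a sum added after seeing the data, 5 of the 6 injury libraries exceeded the lowest distal sum of 29.1 FPKM. Of its 9 tested IDs, 1 had a limma unadjusted p under 0.05, the myelin basic protein gene mbpa, lower at the injury with a difference of -4.54 ± 1.04 (SE, limma adjusted p 0.838, between 0.110 and 0.904 over the alternatives), beside 2.68% of all genes tested. The median difference of the list was -0.22, with 2 IDs higher and 7 lower in mean. In the same order, ENSDARG00000005739 stood at 10.7, 0.725, 3.74, 0.817, 2.65 and 8.54 FPKM in the injury libraries. In the distal libraries it stood at 27.5, 87.7, 15.05, 8.05 and 13.8 FPKM. The part of these cells in the level of ENSDARG00000005739 was not tested, and in bulk samples fewer cells of a type and less RNA per cell cannot be told apart.

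Other cell types were given by their lists in the same way. The 18 IDs of ependymo-radial glia, which line the central canal, summed to between 133 and 612 FPKM in injury libraries and between 79.5 and 816 FPKM distally, with 0 of 15 tested IDs at a limma unadjusted p under 0.05, beside 2.68% of all genes. The median difference of these 15 was 0.37, against -0.04 for all genes, with 9 higher and 6 lower in mean at the injury. Those of cerebrospinal fluid-contacting neurons had sums of 328 to 1118 FPKM and 248 to 737 FPKM, with 0 of 7 at that threshold, beside the same 2.68%. Their median difference was 0.65, with 6 higher and 1 lower. Only GATA3 of these IDs, also in the serotonergic list, was above 0 in every library, between 242 and 731 FPKM. The markers urp1 and urp2 were at 0 in injury replicates 1 to 4. In injury replicate 5 they stood at 213 and 19.5 FPKM, and in injury replicate 6 at 537 and 141 FPKM. Distally urp1 reached at most 4.03 FPKM and urp2 was at 0. Microglia and macrophage genes summed to at most 104 FPKM and 154 FPKM, with a median difference of -0.67, 1 tested ID higher and 4 lower. Endothelial IDs did not exceed 0.0919 FPKM in sum in any library. The part of these cells in either gpm6b ID was not tested.

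Genes of growth cones and neurites were compared because M6 proteins act there. Of 45 tested IDs of the list, 0 had a limma unadjusted p under 0.05 in either direction, beside 2.68% of all genes tested. The median difference was -0.14 on the log2(FPKM + 1) scale, against -0.04 for all genes, and the mean was higher in injury libraries for 18 IDs and lower for 27. The highest were marcksl1b (ENSDARG00000035715), of a family that links membrane and actin, and the stathmins STMN4 and STMN1, which bind tubulin. In marcksl1b the injury libraries ranged from 1176 to 1759 FPKM and the distal libraries from 1173 to 2534 FPKM, a difference of -0.29 ± 0.29 (SE, limma adjusted p 0.838). The differences were -0.21 ± 0.35 (SE, limma adjusted p 0.881) for STMN4 (ENSDARG00000030106) and -0.15 ± 0.43 (SE, limma adjusted p 0.942) for STMN1 (ENSDARG00000033655). The other STMN1 ID, ENSDARG00000004169, was lower at the injury, with a difference of -1.38. STMN2 (ENSDARG00000033234), a growth-cone stathmin, did not pass in the comparison as planned but did under other settings, among them a fit with no trend in the variance prior (0.89 on the log2 scale, limma unadjusted p 0.0165, adjusted p 0.877). The growth-associated gene gap43 passed only without injury replicate 3 (1.04, limma unadjusted p 0.0366, adjusted p 0.825).

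Genes of serotonin synthesis and reuptake were measured because of the known link of GPM6B to the serotonin transporter. Of 8 tested IDs, 0 had a limma unadjusted p under 0.05, beside 2.68% of all genes. The highest were TPH2, the rate-limiting enzyme of serotonin synthesis in neurons (-0.35 ± 0.32, SE), the serotonergic transcription factor FEV (0.09 ± 0.29, SE) and the decarboxylase DDC (0.01 ± 0.39, SE), with limma adjusted p of 0.838, 0.950 and 0.997. TPH2 passed without distal replicate 3 (-0.66, limma unadjusted p 0.0233, adjusted p 0.848). The transporter SLC6A4 (ENSDARG00000061165), named outside the rule for named genes, stood at 49.4, 3.28, 200.1, 27.7, 39.1 and 38.4 FPKM across injury replicates 1 to 6. Distal replicates 1 to 5 had 104, 33.8, 41.3, 183 and 98.7 FPKM. The SLC6A4 difference was -1.13 ± 0.85 on the log2(FPKM + 1) scale (SE, limma adjusted p 0.838), and -1.64 without injury replicate 3 (limma unadjusted p 0.0376, adjusted p 0.825). Across the same injury replicates ENSDARG00000001676 stood at 10.4, 26.7, 0, 0, 8.89 and 2.21 FPKM. Injury replicates 2 and 3, with the lowest and the highest SLC6A4 value, had the fewest genes of at least 1 FPKM, 5443 and 4530. A relation of SLC6A4 to either gpm6b ID was not tested.

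The genes whose levels were most like ENSDARG00000001676 over the 11 libraries were sought among 12806 genes with a symbol and a mean of at least 1 FPKM, by Pearson's r of log2(FPKM + 1), as a description. The most alike was FEZF2 (ENSDARG00000070677), a zinc finger transcription factor of forebrain development, with r 0.996. The authors had already named fezf2, beside gpm6bb, among genes expressed by injury ISNs compared with distal ones, after sequencing these sorted cells. They followed this with in situ hybridization at an earlier time past the injury, with fezf2 in ISNs of the injury and not in distal ones. The likeness found here comes from the same sequencing and gives no separate evidence for either gene. FEZF2 stood at 6.61, 19.05, 0, 0, 5.01 and 1.35 FPKM across injury replicates 1 to 6, and at 0.147 FPKM in distal replicate 1 alone of the distal libraries. Both genes were found in the same 4 injury libraries and in the same order, and the ratio of gpm6b to FEZF2 was 1.58, 1.40, 1.78 and 1.63 in injury replicates 1, 2, 5 and 6. Next came si:dkeyp-69e1.8 (r 0.979), the cyclin gene CCNE2 (r 0.959), NDUFS8 of respiratory complex I (r 0.944) and the adaptor gene NCK1 (r 0.943), all above 0 in the same 4 injury libraries. CCNE2, NDUFS8 and NCK1 were also above 0 in 1 or 2 distal libraries. By Spearman's rho, 2 of these 5 stayed among the 5 most alike. Shared zeros, shared libraries and the number of genes detected enter all these values.

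ENSDARG00000005739 had no match as close. The highest r was 0.918, for EPAS1 (ENSDARG00000057671), a hypoxia-inducible factor, and for the cation channel gene TRPM7. The forkhead gene foxj2 (r 0.913), si:dkey-154p10.3 (r 0.913) and the carbonic anhydrase gene ca2 (r 0.899) followed. These 5 genes were above 0 in all distal libraries and in 3 or 4 of the injury libraries, at or near 0 in injury replicates 2, 3 and 4. EPAS1 reached 2.14 FPKM in injury libraries and 7.61 FPKM in distal ones. With a pseudocount of 0.1, only 1 of the 5 stayed among the 5 most alike. Across the libraries, r was 0.43 with GPM6A ENSDARG00000055455, -0.0039 with GPM6A ENSDARG00000004621 and -0.47 with the other gpm6b ID.

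**Figure D5:**
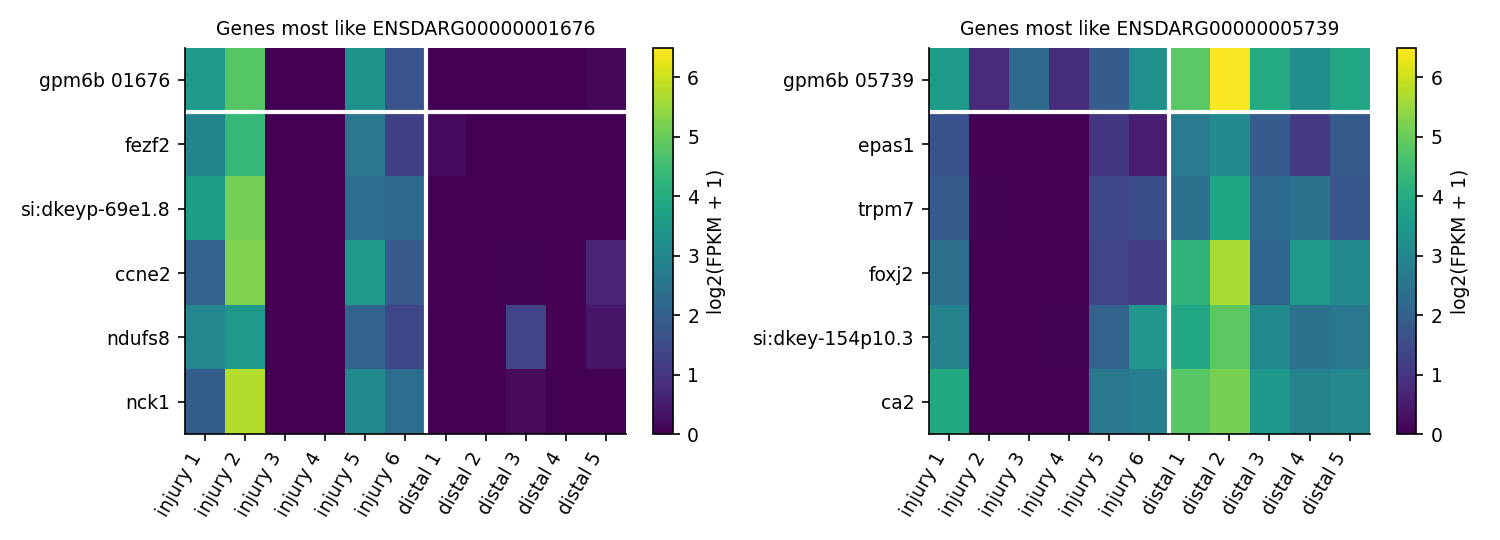
Levels in log2(FPKM + 1), as colour, of each gpm6b ID (top row) and the 5 genes most like it, over the 11 libraries, with the segments divided by a vertical white line. ENSDARG00000001676 and its 5 genes share injury replicates 1, 2, 5 and 6. ENSDARG00000005739 and its 5 genes are above 0 in every distal library. These last 5 genes are at or near 0 in injury replicates 2, 3 and 4, where ENSDARG00000005739 had 0.725, 3.74 and 0.817 FPKM.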

How the data were processed

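RNA of FAC-sorted tph2:GFP+ cells was amplified with a low-input SMART-Seq kit and sequenced as paired ends. Per the labels, the submitters' processing notes name HISAT2 2.0.5, HTSeq 0.9.1 and danRer11. The deposited values are FPKM, which the authors calculated from gene length and fragments per gene, with no filter or scaling between libraries stated; the authors tested genes with DESeq on counts, which was not repeated. Of 39714 IDs, 29201 were paired with a symbol; lists were matched by symbol, or, where only a mammalian symbol exists, after dropping the zebrafish paralog letter. No sequence of the genes was used here.

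Library totals, all within 0.0126 of a whole number, and fragments were recovered as the smallest whole gene length that gives whole fragments in every library, to within 0.002 fragments. IDs with a mean of at least 0.1 FPKM were fitted with limma 3.58.1 in R 4.3.3 (trend, two-sided, Benjamini-Hochberg over all genes tested) on log2(FPKM + 1). Relations used exact permutations (scipy 1.17.1, Python 3.11.15). The recovery and the fit were tested on simulated data. The main fit did not pair libraries by replicate number. Deviations of same-numbered libraries were weakly related (r -0.0465 to 0.133 over 5 pairs), which does not exclude that they came from the same fish. The members, lists and tests were chosen with earlier results of these data known. Some related genes and markers are not reported here, and the lists were shortened accordingly. Named were the M6 IDs, list members at an unadjusted p under 0.05 or otherwise the 3 highest, and the 5 genes most like each ID. Alternatives were other pseudocounts, filters, scalings, variance priors, voom on fragments, the replicate block and leaving out libraries.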

Additional observations from a re-analysis of the deposited data

Results flagged for a closer look

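Among 12 groups of libraries examined for a single library far from the rest (both segments for each gpm6b ID, their sum, the share and both GPM6A IDs), 2 had one, where the criterion marks about 1 in 20 groups by chance, a rate that does not hold where all other values are 0. Distal replicate 5 stood apart for ENSDARG00000001676, at 0.111 FPKM and a share of 0.798% where the other distal libraries were at 0; both values are the same 3 fragments.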

How the results depend on the processing

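Both gpm6b IDs, their sum and their share kept their direction under every alternative run on them. The IDs were chosen for their directions, so this is a description and no support for them. The share, 40.6 percentage points higher at the injury, cannot change with the pseudocount or with scaling of whole libraries. For the sum and the share, the replicate block only left out injury replicate 6. With voom the difference was 5.38 for ENSDARG00000001676. Leaving out 1 library gave 1.67 to 2.63 for ENSDARG00000001676, -2.70 to -1.88 for ENSDARG00000005739, -1.53 to -0.71 for the sum and 29.2 to 48.7 percentage points for the share. For ENSDARG00000001676 a pseudocount of 0.1 gave 4.09 and one of 0.01 gave 5.78, since most distal values are 0. Genes at a limma adjusted p under 0.05 numbered 0, with 649 at an unadjusted p under 0.05, and 2 either with no trend in the prior or with voom on fragments; voom gave 1183 at an unadjusted p. Leaving out 1 library gave 0 and between 541 and 739. Leaving out injury replicates 2 and 3 together, chosen after seeing the data, gave 1100 at an unadjusted p, of which 80.3% were higher at the injury, against 24.5% of the 649; the share was 40.4% after quantile normalization and 45.1% with voom.

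Of the 2 GPM6A IDs, 0 passed at an unadjusted p under any alternative run. Of the growth-cone list, 1 passed with a pseudocount of 0.01, no filter, quantile normalization, no trend, voom, the replicate block, the same 5 replicates with no block, or injury replicates 2 and 3 left out, and 0 to 1 when 1 library was left out. Of the serotonin list, 1 passed with voom and with injury replicates 2 and 3 left out (GCH1 in both), and 0 to 1 when 1 library was left out.

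With the replicate number as a block, 609 genes had an unadjusted p under 0.05 and 0 an adjusted one, against 672 and 0 for the same libraries with no block, a fit also chosen after seeing the data; 2 of 5 injury libraries correlated best with the distal library of their own number. The relation of both IDs within the injury libraries turned from r 0.0051 to -0.0036 with every library scaled to the same summed FPKM. Of the 5 genes most alike, 2 remained for either ID by Spearman's rho, and 1 for ENSDARG00000005739 with a pseudocount of 0.1. Depth limits values under 3 fragments.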
